A study of Mus musculus with 6 samples.

Results

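The genes described here mark B cells and the antibody-secreting plasma cells that derive from them, in mouse mammary tumors treated with a drug combination or with vehicle. There were 8 of them among 12393 genes measured: Igha, Jchain and a kappa light chain variable gene, which encode parts of the secreted antibody, and Cd79a, Cd79b, Ms4a1, Pou2af1 and Pax5, which encode surface proteins and transcription regulators of B cells. Each gene was found by its symbol on probe sets annotated to that symbol alone, and where there were several the brightest on average stands for it. The kappa variable gene is Entrez gene 384419 in the platform annotation, and the plots label it by its full symbol. The genes were proposed with the difference between drug and vehicle already known, so that difference is given for them as a description and not as independent evidence.

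Total RNA from mammary tumors of mice was hybridised to Affymetrix arrays, 1 array per sample and 6 in all. The 3 samples of the vehicle group came from tumor-bearing mice given vehicle, and the 3 of the drug group from tumor-bearing mice given a combination of 3 agents, VX680 (which blocks Aurora kinases), miltefosine (a phospholipid analogue) and WP1066 (which blocks JAK2 and STAT3), both for 21 days. All tumors were of the same labelled tissue, and the sources used here give no strain, age or tumor model and leave unsaid whether each sample came from its own animal. The p-values therefore cover no more than the spread between these particular samples, part of which may be technical, and the number of arrays limits their precision.

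A B cell carries a membrane antibody that signals through the paired chains CD79A and CD79B, and the transcription factor PAX5 holds it in the B cell state. When it becomes a plasma cell it loses PAX5 and some B cell surface proteins, among them CD20, the product of Ms4a1. It then turns its transcription to immunoglobulin heavy and light chains. Plasma cells of the mammary gland are known for IgA, whose heavy chain is encoded by Igha. The joining chain, from Jchain, links IgA units into dimers, which the polymeric immunoglobulin receptor of the epithelium carries into milk.

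The median log2 level of an array was 6.70 to 6.73. Keratin and adhesion genes of mammary epithelium were high on every array, with mean levels over the 12 listed genes of 10.94 to 11.09 in vehicle and 11.16 to 11.26 in drug tumors. The difference between 3' and 5' control probe sets, a measure of RNA integrity, was -0.14 to -0.05 for Gapdh and 0.59 to 0.66 for Actb over the 6 arrays. Skeletal muscle transcripts varied strongly between samples, with a mean centred level of 2.22 in vehicle replicate 3 and 1.46 in drug replicate 1 against -1.98 in drug replicate 3. As a yardstick for background, 65 probe sets of odorant and vomeronasal receptor genes, which tumors are not known to use, had a median mean level of 3.23 and a 95th percentile of 4.55. A gene with a mean over the 6 arrays under 4.55 is called near background here, which held for 22.4% of all genes. Of the 8 genes, 3 lay above this level and 5 under it. Jchain, with a mean of 5.02, was the nearest above and Cd79b, with 4.38, the nearest below. Jchain passed this level through its vehicle samples, since its mean in drug tumors, 4.10, lay under it.

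The 3 antibody genes, Igha, Jchain and the kappa variable gene, were lower in every drug tumor than in any vehicle tumor. The B cell surface and factor genes were not, apart from Pou2af1 at a level near background. Igha and the kappa variable gene had 3.80-fold and 3.85-fold lower means in drug tumors, and Jchain was lower down to levels near background, so no fold is given for it. Cd79b and Ms4a1 stood out in a single vehicle tumor, and Cd79a and Pax5 stayed near background in nearly all samples. In whole tumors, fewer cells of a type and less RNA per cell cannot be told apart.

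Igha had log2 levels of 9.63, 9.49 and 8.36 in vehicle replicates 1 to 3, and of 6.47, 7.84 and 7.40 in drug replicates 1 to 3. The groups did not overlap, with vehicle replicate 3 the lowest vehicle sample and drug replicate 1 the lowest of all. The means were 9.16 ± 0.70 and 7.24 ± 0.70 (SD, n = 3 each), a log2 difference of -1.93 ± 0.45 (SE).

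Jchain had log2 levels of 6.28, 6.15 and 5.40 in vehicle and of 3.50, 4.58 and 4.22 in drug tumors. The order of the samples was the same as for Igha, from vehicle replicate 1 at the top to drug replicate 1 at the bottom. The means were 5.94 ± 0.47 and 4.10 ± 0.55 (SD, n = 3 each), and the log2 difference was -1.84 ± 0.33 (SE). The values of drug replicates 1 and 3 and the drug mean lay under the background yardstick, where a difference can be understated.

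The kappa variable gene, a segment that joins others to form the antigen-binding end of the kappa light chain, had log2 levels of 7.23, 6.72 and 6.73 in vehicle and of 4.68, 5.21 and 4.95 in drug tumors. The samples of each group lay close together, and the gap between the lowest vehicle and the highest drug sample, 1.51, was the widest of the 8 genes. The means were 6.89 ± 0.29 and 4.95 ± 0.27 (SD, n = 3 each), a log2 difference of -1.94 ± 0.19 (SE). Its probe set is of a type that can cross-hybridise with related sequences, so the value may hold signal of other kappa chains. The probe set standing for Igha is of the same type, so the Igha value may also hold signal of related sequences.

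**Figure D1:**
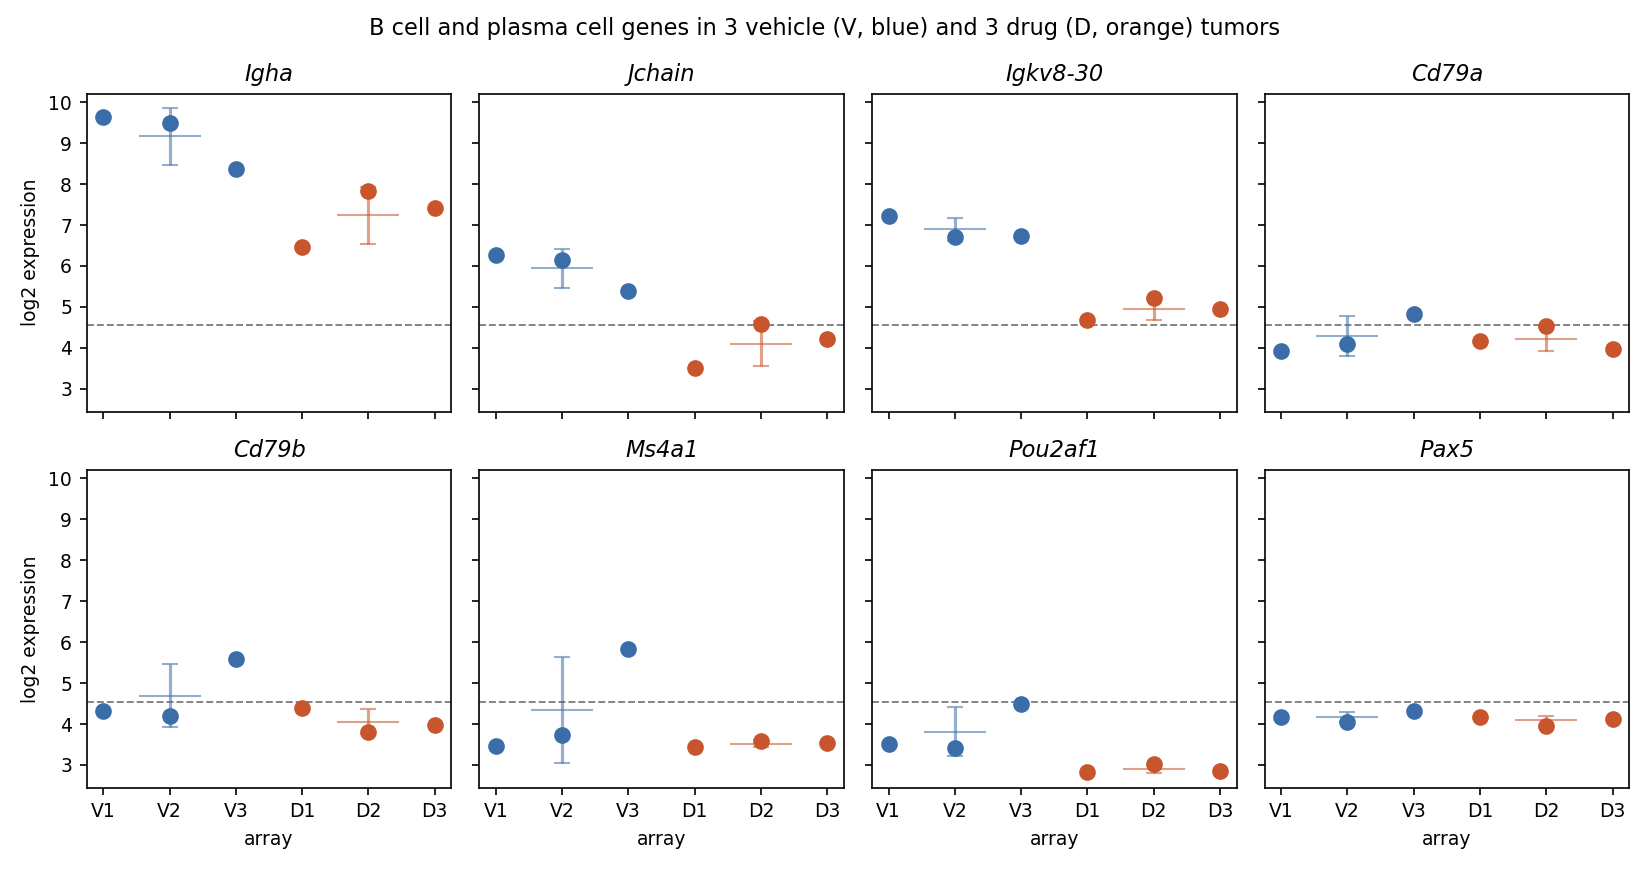
Log2 expression of the 8 genes in each of the 6 arrays, vehicle replicates V1 to V3 in blue and drug replicates D1 to D3 in orange. Horizontal ticks with bars are group means ± SD (n = 3), and the dashed line is the background yardstick at 4.55. Igha, Jchain and the kappa variable gene are lower in every drug array, and Cd79b and Ms4a1 are high only in V3.

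The fit across all genes with limma called 0 of the 8 genes at an adjusted p under 0.05. It called 0% of all genes, and 4 of the 8 had an unadjusted p under 0.05 against 4.91% of all genes on the lower side. The adjusted p was 0.231 for the kappa variable gene, the smallest value in the table and one that 18 genes share, 0.268 for Jchain and 0.343 for Igha in limma's Benjamini-Hochberg adjustment over all genes. By size, the log2 differences of the kappa variable gene and Igha ranked 12 and 13 from the lowest among 12393 genes, and 0.299% of all genes had a difference of -1 or lower. For 4 of the 8 genes (Igha, Jchain, the kappa variable gene and Pou2af1) the highest drug sample was below the lowest vehicle sample, as for 9.37% of all genes. Since the genes were chosen on this contrast, their counts are set beside these shares without a reading.

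The other probe sets of Igha had the same direction, and the second of them is again of the type that can cross-hybridise. The first had levels of 9.53, 9.19 and 8.20 in vehicle and 4.84, 7.36 and 6.98 in drug tumors, and the second 9.01, 8.49 and 7.73 against 6.33, 7.19 and 6.85. Their log2 differences were -2.58 and -1.62, so the size of the difference depends on the probe set while drug replicate 1 was the lowest sample in each. A further 3 probe sets of the cross-hybridising type are annotated to several kappa genes at once and cannot be assigned to a single gene. They lay between 7.28 and 9.34 in vehicle and between 2.72 and 7.41 in drug tumors, with log2 differences of -2.71 and -2.90 on the first and second and no overlap between groups on any. The third, with a vehicle mean of 7.62, had a drug mean of 4.45, under the yardstick, and no size is given for it. On all 3 drug replicate 1 was the lowest sample. The remaining 10 probe sets annotated to several immunoglobulin genes had means near background and log2 differences between -0.34 and 0.08.

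**Figure D2:**
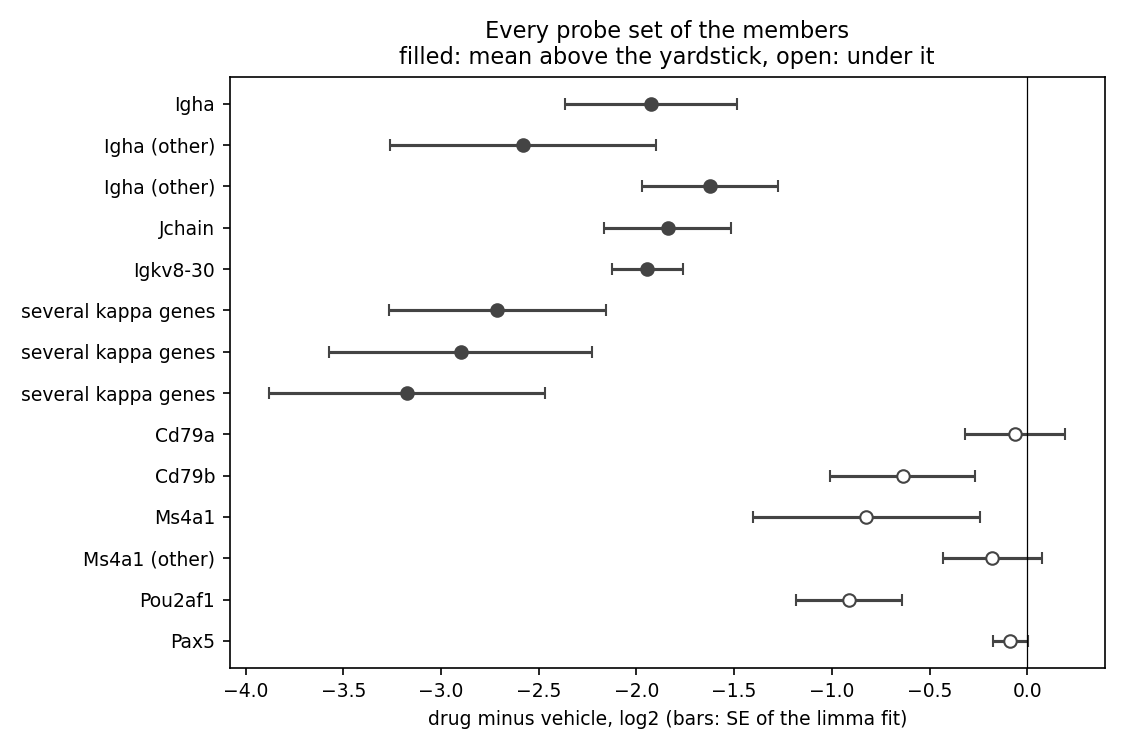
Log2 difference of drug minus vehicle for every probe set annotated to the 8 genes alone and for the 3 probe sets shared by several kappa genes, with bars of ± SE from a limma fit over all probe sets (n = 3 per group). Filled points have a mean above the background yardstick and open points a mean under it. All 8 filled points lie at -1.62 or lower. For 2 of them, Jchain and 1 shared probe set, the drug mean is under the yardstick, where a difference can be understated.

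Pou2af1 encodes a coactivator that B cells and plasma cells use with octamer-binding factors at immunoglobulin promoters. It had log2 levels of 3.52, 3.41 and 4.50 in vehicle and of 2.82, 3.02 and 2.86 in drug tumors. Every sample lay under the background yardstick, vehicle replicate 3 just below it, and the groups did not overlap. The means were 3.81 ± 0.60 and 2.90 ± 0.10 (SD, n = 3 each), a log2 difference of -0.91 ± 0.28 (SE) with limma's adjusted p at 0.398. Without vehicle replicate 3 the difference was -0.57.

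Upstream sequence was at hand in RefSeq (GRCm38.p6) for 4 of the 8 genes. It is shown for Jchain and Pou2af1, the pair among these 4 whose groups did not overlap, as the 250 bases before the gene start, read 5′ to 3′ on the gene's strand. Jchain lies at chr5:88527898-88528147 on the minus strand and Pou2af1 at chr9:51213440-51213689 on the plus strand. Capitals mark the core of the octamer motif, TGCAAAT, searched on both strands.
Jchain: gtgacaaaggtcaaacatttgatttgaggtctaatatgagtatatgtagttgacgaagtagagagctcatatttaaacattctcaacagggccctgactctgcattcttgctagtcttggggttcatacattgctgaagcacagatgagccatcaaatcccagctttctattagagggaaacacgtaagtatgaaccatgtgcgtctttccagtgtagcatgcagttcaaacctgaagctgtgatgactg
Pou2af1: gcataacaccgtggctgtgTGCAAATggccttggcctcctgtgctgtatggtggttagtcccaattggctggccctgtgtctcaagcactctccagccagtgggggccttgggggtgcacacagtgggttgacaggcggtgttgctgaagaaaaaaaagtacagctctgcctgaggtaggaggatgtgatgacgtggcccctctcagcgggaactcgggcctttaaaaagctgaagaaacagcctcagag
The core occurred 1 time in the Pou2af1 window, beginning 231 bases before the start on the gene's strand, and 0 times in those of Jchain, Cd79a and Pax5. It occurred in 3.56% of all 32851 windows of this length. The full octamer, ATGCAAAT, occurred in 0 of the windows of these 4 genes, that of Pou2af1 included, and in 1.6% of all windows. The E-box motif CANNTG, which is its own reverse complement, occurred 3 times in the Jchain window and 2 times in that of Pou2af1, and at least 1 time in 66.2% of all windows.

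Ms4a1, the gene of the surface protein CD20, had log2 levels of 3.47, 3.72 and 5.84 in vehicle and of 3.43, 3.59 and 3.54 in drug tumors. Vehicle replicate 3 stood 2.11 above the next sample, and the other 5 samples lay under the background yardstick with overlapping groups. The mean difference was -0.82 ± 0.60 (SE), with a 95% interval of -2.26 to 0.61, and it was -0.08 without vehicle replicate 3. A further probe set of Ms4a1 had levels of 2.16, 2.36 and 3.20 in vehicle and 2.33, 2.37 and 2.49 in drug tumors, with vehicle replicate 3 again the highest.

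Cd79b, the beta chain of the signalling pair, had log2 levels of 4.31, 4.19 and 5.58 in vehicle and of 4.40, 3.80 and 3.98 in drug tumors. Only vehicle replicate 3 lay above the yardstick, and the groups overlapped. The difference was -0.64 ± 0.38 (SE), with a 95% interval of -1.55 to 0.28, and it was -0.19 without vehicle replicate 3.

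Cd79a, the alpha chain, had log2 levels of 3.91, 4.09 and 4.83 in vehicle and of 4.15, 4.53 and 3.96 in drug tumors. The groups overlapped throughout, with vehicle replicate 3 the highest sample and the only value above the yardstick. The difference was -0.06 ± 0.26 (SE), with a 95% interval of -0.70 to 0.57, and it was 0.21 without vehicle replicate 3.

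Pax5, the transcription factor of B cell identity, had log2 levels of 4.16, 4.06 and 4.31 in vehicle and of 4.17, 3.96 and 4.13 in drug tumors. All 6 values lay under the yardstick and spanned less than those of any other of the 8 genes. The difference was -0.09 ± 0.09 (SE), with a 95% interval of -0.30 to 0.13. For these 4 genes the intervals include 0, which does not show that drug and vehicle tumors were alike.

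The antibody genes and the surface genes thus ordered the vehicle tumors differently. All 5 surface and factor genes were highest in vehicle replicate 3, as were 16.8% of all genes, and Ms4a1, Cd79b, Pou2af1, Cd79a and Pax5 stood 2.24, 1.33, 1.03, 0.83 and 0.20 above the mean of the other vehicle tumors. Ms4a1 and Cd79b were at least 1 above each of the other 5 arrays, as were 0.29% of all genes. Pou2af1 and Pax5 lay under the background yardstick in every sample. Igha, Jchain and the kappa variable gene were highest in vehicle replicate 1. In vehicle replicate 3 they lay 1.20, 0.82 and 0.24 below the mean of the other vehicle tumors. For the kappa variable gene vehicle replicates 2 and 3 were nearly level, at 6.72 and 6.73. Left out, vehicle replicate 3 moved the median difference of the 5 surface and factor genes from -0.64 to -0.08, and that of the 3 antibody genes from -1.93 to -2.11. Spib, a transcription factor of B cells, and Ighv14-2, a heavy chain variable segment, were also highest in this tumor, at 5.36 and 4.98 against 3.86 to 4.21 and 3.16 to 3.61 elsewhere, and both were named after their values were seen.

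**Figure D3:**
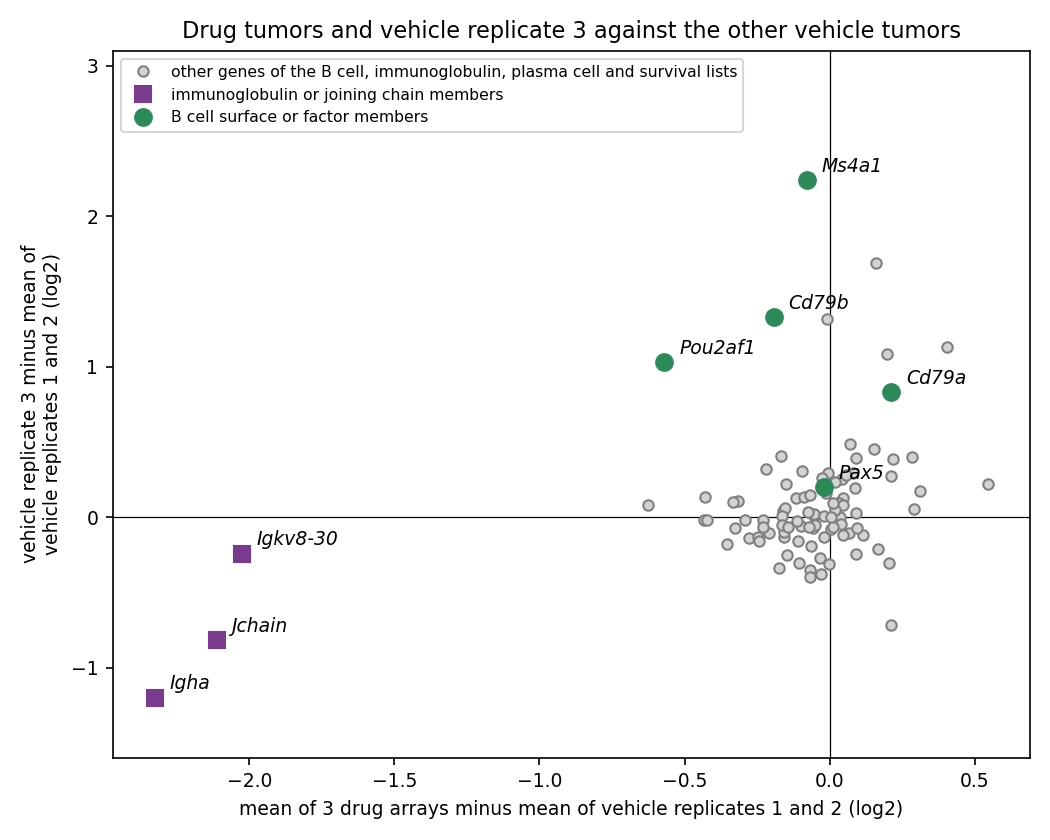
Each point is a gene. The horizontal axis gives the mean of the 3 drug arrays minus the mean of vehicle replicates 1 and 2, and the vertical axis gives vehicle replicate 3 minus the same mean, both on the log2 scale. Igha, Jchain and the kappa variable gene (squares) lie at -2.33 to -2.03 on the horizontal axis, while Ms4a1, Cd79b and Pou2af1 (green circles) stand 1.03 to 2.24 up the vertical axis.

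Other tissue markers moved with vehicle replicate 3 too, which was the highest array for 16.8% of all genes. Of 29 measured skeletal muscle genes 27 were highest in it, and of 10 adipocyte genes 8, with a mean adipocyte level of 7.22 against 5.09 to 6.88 in the other samples. Among 7 measured genes of lymph node stroma 2 were highest in it, and Cxcl13, a chemokine that draws B cells into follicles, had levels of 4.65, 4.83 and 5.87 in vehicle and 5.15, 5.34 and 4.95 in drug tumors. The mean level of these 7 genes was 5.22 to 6.05 in vehicle and 5.77 to 5.87 in drug tumors. It is no measure of lymph node content by itself, since Glycam1 alone had a mean of 10.04. Of the same list, Ccl21a, Ccl21b and Ccl19 were not analysed. All 29 skeletal muscle genes had lower means in drug tumors, where 52.1% of all genes did. Their median difference was -1.37, and the groups overlapped for each of them. Of the 10 adipocyte genes 4 had lower means and 6 higher ones. The part of these tissues in the B cell and antibody gene values was not tested. Without the 2 samples richest in muscle transcripts, vehicle replicate 3 and drug replicate 1, 2 samples per group remained. The difference of Igha, Jchain and the kappa variable gene was then -1.94, -1.81 and -1.89. The skeletal muscle genes still had a median difference of -1.85 in this setting, so it cannot separate muscle content from treatment.

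Most of the other immunoglobulin genes on the arrays gave little signal. Ighm, described below, and Ighg3 lay above the yardstick. Ighg3, named after its values were seen, had a mean of 4.57 and differed by -0.02 ± 0.12 (SE) with overlapping groups. Of 20 genes for heavy, kappa or lambda chains with a probe set of their own, Igha and the kappa variable gene included, 16 had means near background. Means were lower in drug tumors for 13 of the 20, with a median difference of -0.07 against -0.005 for all genes, and 4 had every drug sample below every vehicle sample, against 9.37% of all genes. Without Igha and the kappa variable gene, which were chosen on this contrast, it was 2 of 18. Iglv1, a lambda variable segment, differed by -0.47 ± 0.11 and Igkv6-14, a kappa variable segment, by -0.43 ± 0.13 (SE, n = 3 per group), both near background. Ighm, the heavy chain of IgM, named after its values were seen, had 11 probe sets, of which 2 lay above the yardstick. The probe set with the highest mean is of the type that can cross-hybridise. It had levels of 7.34, 7.38 and 7.46 in vehicle and 7.47, 7.41 and 7.31 in drug tumors. The other one above the yardstick had levels of 5.64, 5.73 and 5.93 against 5.59, 5.66 and 5.11. Its difference was -0.32 ± 0.16 (SE) with overlapping groups. Over all 11 the differences were -0.54 to 0.15, and the groups did not overlap for 2, both lower in drug tumors and near background.

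Genes of the B cell receptor, its signalling and B cell transcription factors were taken as 3 lists with 40 measured genes in all. Of these 31 had lower means in drug tumors, where 52.1% of all genes did, with a median of -0.09. By limma, 0 genes of the 3 lists passed the adjusted threshold of 0.05. At an unadjusted p under 0.05 there were 8 on the lower side, against 4.91% of all genes, and 1 on the higher side, against 5.37%. The groups did not overlap for 11 genes, with drug tumors lower in 10, against 9.37% of all genes, and higher in 1, against 7.73%. These counts include the 5 surface and factor genes, which were chosen on this contrast. Vehicle replicate 3 was the highest array for 19 of the 40, and for 14 of the 35 that are not among the 8 genes. It was the highest for 16.8% of all genes.

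The genes named here, Cd22 apart, were picked by smallest unadjusted p in their lists, while the list medians were -0.10, -0.06 and -0.12. Among receptor genes, Ly86 is a partner of the toll-like receptor homologue CD180. It had levels of 7.94, 7.53 and 7.82 in vehicle and 7.22, 7.37 and 6.75 in drug tumors, a difference of -0.65 ± 0.18 (SE). Cd72, a B cell coreceptor, differed by -0.29 ± 0.07 and Cd22, an inhibitory coreceptor, by -0.22 ± 0.15, the latter with overlapping groups. Of the signalling genes, Dapp1, an adaptor, had levels of 5.74, 5.85 and 5.90 against 5.49, 5.47 and 5.47, a difference of -0.35 ± 0.06. Vav1, an exchange factor of blood cells, differed by -0.37 ± 0.11 near background, with every sample under the yardstick. The tyrosine kinase Btk was close to level at -0.09 ± 0.05. Of the transcription factors, Irf8, used by B cells and by myeloid cells, differed by -0.42 ± 0.07 without overlap, and Bcl11a by -0.29 ± 0.09. Foxo1 had a higher mean by 0.27 ± 0.05, also without overlap.

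Genes of the plasma cell program other than Jchain were divided in direction. Of the 17 others measured 12 had higher means in drug tumors and 5 lower ones, with a median of 0.08. Xbp1 and Prdm1, factors of plasma cell differentiation, differed by 0.07 ± 0.14 and 0.17 ± 0.11, and Sdc1, the plasma cell surface protein syndecan 1, by 0.10 ± 0.08 (SE, n = 3 per group), each with overlapping groups. Irf4, a further plasma cell factor, was near background at 3.60 to 3.76 in vehicle and 3.69 to 3.88 in drug tumors. Sec11c, a signal peptidase subunit, differed by 0.31 ± 0.12 and Creld2, a chaperone of the endoplasmic reticulum, by -0.20 ± 0.08. Epithelial cells also express Xbp1, Sdc1 and the secretory genes, and Xbp1 lay between 11.69 and 12.20 in these tumors.

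**Figure D4:**
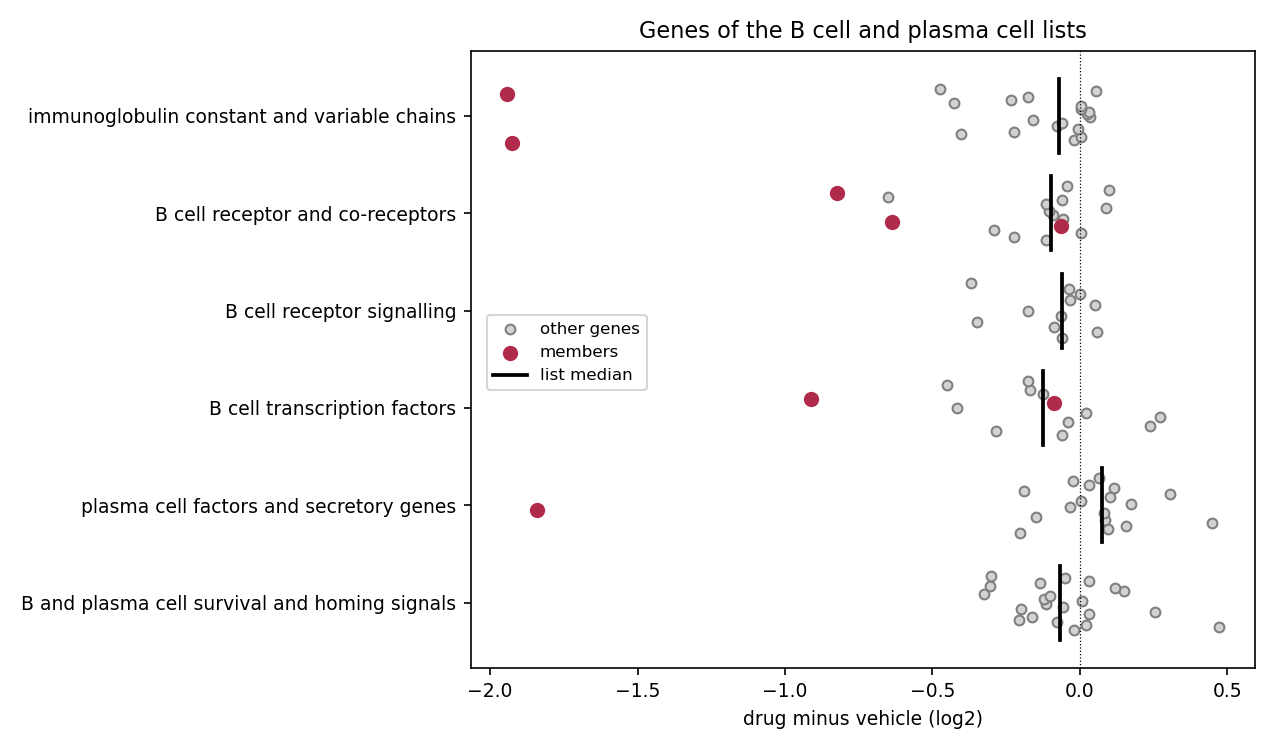
Log2 difference of drug minus vehicle for the measured genes of 6 lists, with the 8 genes in red, other genes in grey and the median of each list as a black line. The list medians lie between -0.12 and 0.07, and Igha, the kappa variable gene and Jchain lie at -1.94 to -1.84.

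Signals that keep or draw B and plasma cells were close to level in the main. Of 22 measured genes 14 had lower means and 8 higher ones, with a median of -0.07. Tnfsf13b, the survival factor BAFF, had levels of 4.73, 4.80 and 4.70 in vehicle and 4.66, 4.42 and 5.01 in drug tumors. Itgb7, an integrin chain for homing to mucosa, differed by -0.33 ± 0.11 (SE) without overlap. Ccl28, the chemokine that draws IgA-secreting cells into the mammary gland, had levels of 6.05, 6.70 and 6.60 in vehicle and 7.06, 6.93 and 6.77 in drug tumors. The 3 drug samples were above the 3 vehicle samples for Ccl28, as for 7.73% of all genes, and the difference was 0.47 ± 0.18 with limma's adjusted p at 0.466.

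Pigr, the epithelial receptor that carries dimeric IgA, had log2 levels of 7.23, 7.64 and 6.55 in vehicle and of 8.15, 7.60 and 8.58 in drug tumors. Its mean was 1.96-fold higher in drug tumors, with drug replicate 2 just under the highest vehicle sample. The difference was 0.97 ± 0.34 (SE) and its adjusted p 0.438 by limma. Ccl28 and Pigr thus had higher means in the tumors in which Igha and Jchain had lower ones.

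Markers of other immune cells were set beside these values. The pan-leukocyte gene Ptprc had levels of 8.97, 8.73 and 9.05 in vehicle and 8.62, 8.57 and 8.30 in drug tumors, and means were lower for 7 of 8 leukocyte genes (median difference -0.28). Their mean level was 8.42 to 8.63 in vehicle and 8.22 to 8.43 in drug tumors. Means were lower for 8 of 12 T cell genes (median difference -0.12), with a mean level of 4.62 to 4.76 in vehicle and 4.48 to 4.60 in drug tumors, and Cd3d, part of the T cell antigen receptor, differed by -0.52 ± 0.09 (SE). Of 13 macrophage genes 8 and of 9 dendritic cell genes 7 had lower means, with medians of -0.14 and -0.06. The part of a lower overall leukocyte content in the antibody gene values was not tested.

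Genes of MHC class II, which B cells share with dendritic cells and macrophages, also had lower means in drug tumors for 7 of 9 measured genes (median difference -0.34). H2-Aa, H2-Ab1 and Cd74 were picked from this list by smallest unadjusted p. In them vehicle replicate 2 was the lowest vehicle sample, where for Igha and Jchain it was replicate 3. Their differences of -2.04, -1.95 and -1.96 ranked 8, 11 and 10 from the lowest of all genes, next to those of the kappa variable gene and Igha, with no overlap between groups. Drug replicate 1 was the lowest sample for H2-Aa and Cd74, as it was for Igha and Jchain, while for H2-Ab1 it was drug replicate 3. H2-Aa had levels of 8.88, 8.65 and 9.28 in vehicle and 6.32, 7.66 and 6.70 in drug tumors.

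The genes whose levels most resembled the mean of Igha and Jchain over the 6 arrays, out of 12385 others, were Cd2bp2, Gon4l, Tasor2, Psmd4, Otud7b and Psmb9, with Pearson's r between 0.989 and 0.998. They resembled it in shape and not in size, since Cd2bp2 differed by -0.13, Psmd4 by -0.08 and Psmb9, an immunoproteasome subunit, by -0.53. The genes most like the mean of Cd79a and Cd79b were Clca3a1, Reg4, Adssl1, St3gal6, Usp9x and Rnase2a, with r between 0.981 and 0.991, and 4 of these 6 were near background. Within the 8 genes, the kappa variable gene had an r of 0.94 with the mean of Igha and Jchain, and Ms4a1 of 0.17. Ms4a1 in turn had an r of 0.96 with the mean of Cd79a and Cd79b, and Igha of 0.01. These are descriptions over 6 arrays. Igha, Jchain and the kappa variable gene were chosen on the contrast between drug and vehicle, so a high r among them follows in part from that choice. The second pattern rests on vehicle replicate 3.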

How the data were processed

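Mammary tumor RNA from 3 vehicle and 3 drug samples, grouped by the treatment in the labels, was measured on 1 array each. The authors' deposited table holds log2 expression of 22690 probe sets. It was made with Affymetrix Expression Console, per the submitters' processing notes, while the version and the methods of summarisation and normalization are not given there. That the scale is log2 was inferred from its range, 1.88 to 14.14. Arrays scaled to near-equal medians can hide a shift common to most genes. No detection calls were used.

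Gene symbols came from the 2016 annotation of the platform. Those with 1 symbol (20380) were kept, 1 per gene by highest mean over the arrays, which left 12393 genes. Groups were compared by lmFit and eBayes of limma 3.58.1 (R 4.3.3), two-sided, with Benjamini-Hochberg adjustment over all genes and a threshold of 0.05, a procedure tested on simulated data. An exact permutation test of 3 against 3 samples cannot give a two-sided p under 0.1. The labels name no batch or pairing.

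The 8 genes, the lists and the tests were chosen with earlier results of these data known. Named genes are the 8, up to 4 per list by smallest unadjusted p, preset genes of plasma cells, homing and IgA transport, and the 6 most similar genes per pattern. Some listed genes, Mzb1 and Tnfsf13 among them, were not analysed here. As alternatives, a gene's probe sets were averaged, genes with a mean level under 5 were dropped, arrays were quantile-normalized, shifted to 1 median or weighted, eBayes was run with a trend and robustly, each array and the 2 muscle-rich arrays were left out, and a skeletal muscle score was added to the model. Figures were drawn with matplotlib 3.10.9.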

Additional observations from a re-analysis of the deposited data

How the results depend on the processing

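Igha, Jchain and the kappa variable gene kept lower means in drug tumors under all 14 alternatives, with log2 differences of -2.47 to -1.54, -2.24 to -1.54 and -2.08 to -1.78, and limma's adjusted p of any of the 8 genes was never under 0.0786. The number of genes called over all genes was 0 to 3 when single arrays were left out, and none of the 3 called without drug replicate 2 was among the 8. Cd79a turned to a higher mean with both muscle-rich arrays left out (0.243), with array weights (0.064) and with the muscle score in the model (0.068), and ranged from -0.247 to 0.213 when single arrays were left out, higher without vehicle replicate 3 (0.213) and without drug replicate 3 (0.064). Of the other surface and factor genes, Ms4a1 ranged from -1.26 to -0.03, Cd79b from -0.89 to -0.19, Pou2af1 from -1.11 to -0.53 and Pax5 from -0.15 to -0.01. The minimum mean level of 5 kept only 3 of the 8 genes, all 3 with lower means, and so gives no value for the surface genes. With the muscle score as covariate, overlap of the groups was not counted. Low levels limit the surface genes and Jchain, since near background a fold change can understate a difference and a difference can also arise from noise. No paired analysis was possible because the labels name no pairing. The labels give no replicate numbers either, and those used here follow the order of the samples.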
